A study of Homo sapiens with 12 samples.

Results

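Transcript levels were compared between 2 inhibitors of histone acetyltransferases in HMEC-1, an immortalised cell line from the microvessels of human skin. Each inhibitor was given for 48 h together with oncostatin M, which belongs to the interleukin-6 cytokines. The PF9363 group received PF9363, named in the labels as an inhibitor of KAT6A and KAT6B, at 30 µg/mL, and the CBP300 group received CBP300, named there as an inhibitor of EP300, at 10 µg/mL. The OSM group received the cytokine without an inhibitor and the CT group fresh medium. Each group held 3 mRNA-Seq libraries of the same line. The 6 inhibitor libraries carry the comparison, and the OSM and CT libraries enter the fit and serve as levels to set it against. The question was which genes and functions differ between cells in which the 2 classes of enzyme were inhibited. The members are the 15676 genes, of 60623 in the deposited table, with at least 1 TPM (a transcript level scaled for transcript length and to a common library total) in at least 3 of the 6 inhibitor libraries. Just inside this limit were CDKL3, GDPGP1 and COLQ, where the lowest of the 3 libraries that count had 1.0001, 1.0003 and 1.0005 TPM. Just outside it were LINC01133, FKBP4P6 and KLC4-AS1, with 0.99878, 0.99785 and 0.99743 TPM. Of the members, 438 reached 1 TPM in all 3 PF9363 and in no CBP300 library and 660 the reverse, and these had to differ. No inhibitor was given without oncostatin M, no vehicle is named, the doses of the inhibitors differ, and neither the activity of the enzymes nor histone acetylation was measured. The protocol gives oncostatin M at 10 ng/mL and the single samples' labels at 10 µg/mL. Whether replicates were separate cultures is not stated, and each p-value measures only the spread among these libraries, which may be technical.

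Histone acetyltransferases place acetyl groups on lysines of histones and other proteins, and acetylated chromatin is opened and read by bromodomain proteins. KAT6A and KAT6B belong to the MYST family, work in a complex with a BRPF scaffold, ING5 and MEAF6, acetylate histone H3 and are known for keeping HOX genes active in development. EP300 and its paralog CREBBP are coactivators that transcription factors such as the STATs, NF-κB, the SMADs and HIF1A bring to enhancers, where they acetylate H3 and H4. Oncostatin M binds a receptor made of OSMR or LIFR with gp130 (IL6ST) and acts through JAK kinases, STAT3 and the ERK kinases. In endothelium it is known for inducing inflammatory genes and changing the cells' shape.

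Promoters are shown for 2 gene groups that moved in opposite directions, the interferon-stimulated genes (higher with PF9363) and the metallothioneins (lower). All are RefSeq sequence of GRCh38.p14, 250 bases before the gene's start, written 5′ to 3′ on the gene's strand. The first 3 belong to the interferon-stimulated genes with the largest called rise among those whose promoter held a match to the motif searched. Their matches were thus fixed by this choice, and the promoter of MX1, which rose more than ISG15, held 0. In the first 3, capitals mark the core of the interferon-stimulated response element, which IRF proteins bind, searched as GAAA repeated after a gap of any 2 bases, on both strands and with overlapping matches counted:
IFI27, chr14:94110486-94110735, + strand: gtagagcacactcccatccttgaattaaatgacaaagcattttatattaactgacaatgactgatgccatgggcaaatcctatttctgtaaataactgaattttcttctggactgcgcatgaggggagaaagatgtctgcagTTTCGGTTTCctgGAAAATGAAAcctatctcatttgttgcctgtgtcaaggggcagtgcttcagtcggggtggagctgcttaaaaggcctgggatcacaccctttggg
ISG15, chr1:1013247-1013496, + strand: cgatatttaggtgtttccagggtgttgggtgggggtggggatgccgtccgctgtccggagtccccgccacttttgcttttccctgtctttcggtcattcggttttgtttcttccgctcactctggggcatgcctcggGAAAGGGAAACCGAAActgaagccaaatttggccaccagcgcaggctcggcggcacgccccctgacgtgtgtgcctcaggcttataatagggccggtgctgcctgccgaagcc
IFITM1, chr11:313790-314039, + strand: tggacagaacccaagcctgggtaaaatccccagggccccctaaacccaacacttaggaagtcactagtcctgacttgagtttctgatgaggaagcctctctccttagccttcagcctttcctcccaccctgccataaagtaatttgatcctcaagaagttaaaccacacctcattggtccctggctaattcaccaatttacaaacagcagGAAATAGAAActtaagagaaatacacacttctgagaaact
In the other 2, capitals mark the core of the metal response element, the site of the zinc sensor MTF1, spelled TGCACNC or TGCGCNC and searched in the same way:
MT1X, chr16:56682220-56682469, + strand: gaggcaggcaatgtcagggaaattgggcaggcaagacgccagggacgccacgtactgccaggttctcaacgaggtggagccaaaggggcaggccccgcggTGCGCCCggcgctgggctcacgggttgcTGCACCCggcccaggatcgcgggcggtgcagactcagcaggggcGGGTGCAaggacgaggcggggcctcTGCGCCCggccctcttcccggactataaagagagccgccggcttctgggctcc
MT2A, chr16:56608334-56608583, + strand: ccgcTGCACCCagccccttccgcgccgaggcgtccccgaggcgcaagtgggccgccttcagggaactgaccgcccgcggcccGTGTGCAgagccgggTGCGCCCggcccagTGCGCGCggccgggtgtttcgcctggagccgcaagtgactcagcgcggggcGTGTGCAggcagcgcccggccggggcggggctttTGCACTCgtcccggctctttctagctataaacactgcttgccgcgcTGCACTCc
The interferon core was found in 21 of the 33 promoters of the interferon-stimulated list that the promoter table holds (63.6%), and in 3.07% of all 27305 promoters. It was in 2.38% of promoters of tested genes. It was in 6.18% of 550 promoters of genes called at least 2-fold higher, which include members of the interferon-stimulated list. Among 2464 promoters of genes called at least 2-fold lower it was in 1.7%. The metal core is frequent, in 24.7% of all promoters and in 33.6% of those of tested genes. It was in 26.0% of the promoters of genes called at least 2-fold higher and in 33.2% of those called at least 2-fold lower. It was found 4 times in that of MT1X and 7 times in that of MT2A, the only MT1 and MT2A promoters in the table. The table matched 10373 of the 15628 symbols of tested genes. A match is a description of these letters and not a site shown to be bound.

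Depth, summed from whole reads recovered from the TPM and in units of 1e6 reads, was 15.7 to 16.5 in PF9363, 13.4 to 73.3 in CBP300 and 15.8 to 20.8 in OSM libraries. Mitochondrially encoded RNA took 15.6% to 18.1% of the TPM with PF9363 and 17.7% to 18.1% with CBP300. The endothelial markers PECAM1 and CDH5 were present in all libraries. PF9363 replicate 3 stood apart, with a mean absolute log2 difference per gene of 0.46 and 0.38 from the other PF9363 libraries, which differed from each other by 0.24. Across genes, which are not independent replicates, its deviations from its group mean correlated with those of CT replicate 1 at 0.56. CBP300 libraries differed by 0.14 to 0.18. The groups differed in how level depended on base composition. Relative to the mean of all libraries, the log2 slope over 10 points of GC content was -0.17 to 0.12 with PF9363 and -0.37 to -0.31 with CBP300. The slope over a doubling of transcript length was -0.12 to 0.03 with PF9363 and 0.13 to 0.15 with CBP300. Corrected values, from which each library's smooth trend on GC content and length was removed, are therefore given beside most list counts and some of the named genes. Where a named gene has none, its call rests on the deposited TPM alone and may not hold once the trend is removed. The part of this trend in the differences was not tested.

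Levels were compared as log2(TPM + 1) with limma, with Benjamini-Hochberg adjustment over all 15676 members, and a gene was called where its adjusted p was under 0.05. Values with ± are the mean and SD of 3 libraries, and the adjusted p of every gene named below comes from this test. Genes that passed the limit of 1 TPM through all libraries of one inhibitor and none of the other had to differ, and for them a log2 change is given with no test. In all, 9834 members (62.7%) were called. Of these, 2366 (15.1% of all members) were called higher and 7468 (47.6%) lower with PF9363 than with CBP300, of which 925 (5.9%) and 3499 (22.3%) differed at least 2-fold. The 6 libraries did not overlap for 11608 members (74.0%). The median member was lower by 0.44 (log2 change of -0.44), and a change is best read relative to that shift. The division depends on scaling. With median-of-ratios factors 4313 (27.5%) were higher and 4628 (29.5%) lower. In corrected values 4569 (29.3%) were higher and 4588 (29.4%) lower, of 15579 genes with an annotation. Of the genes called lower, 4403 were also lower in corrected values and 316 were higher there, while 2265 of those called higher were also higher there and 0 were lower. Against the OSM libraries, 1908 members (12.2%) were higher and 5716 (36.5%) lower with PF9363, and 2405 (15.3%) were higher and 2089 (13.3%) lower with CBP300. These comparisons share the OSM libraries, so each is given by its own values only. Counts in the gene lists below are to be read against the shares over all members, 15.1% higher and 47.6% lower, or 29.3% and 29.4% in corrected values. Counts against OSM are to be read against 12.2% higher and 36.5% lower with PF9363, and 15.3% and 13.3% with CBP300.

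**Figure D1:**
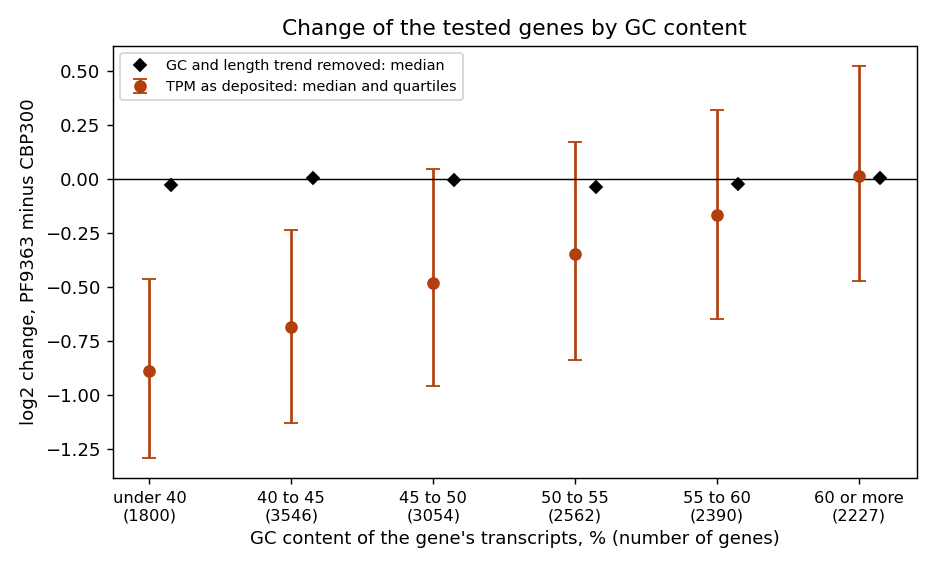
Log2 change (PF9363 minus CBP300, vertical axis) of the members by GC content of their transcripts (horizontal axis, number of genes below each class), as median and quartiles of the deposited TPM and as median after removal of the GC and length trend. The median runs from -0.89 for genes under 40% GC to 0.01 for those at 60% or more, and the corrected medians lie between -0.037 and 0.0047.

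The members called at least 2-fold lower were long and poor in GC, with a median transcript of 4330 bases and 44.5% GC, against 2045 bases and 54.95% for those called at least 2-fold higher and 2958 bases and 48.9% over all members. The share called lower was 62.8% among genes under 40% GC and 29.3% among those at 60% or more, and the share called higher was 4.28% and 31.1% in the same classes. Genes at least 2-fold higher had a median level of 8.94 TPM with PF9363, 1.70 TPM with CBP300 and 3.72 TPM with OSM. Genes at least 2-fold lower had a median of 5.98 TPM with PF9363, 18.4 TPM with CBP300 and 12.8 TPM with OSM.

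The genes that mark this contrast were NOS3, CXCL8 and EGR1. NOS3, which makes the vasodilator nitric oxide in endothelium (chromosome 7, 150990995 to 151014588, plus strand, GRCh38), had 35.2, 39.997 and 28.1 TPM with PF9363, 3.32, 3.89 and 3.11 TPM with CBP300 and 7.42, 8.66 and 9.62 TPM with OSM. The PF9363 libraries were all above OSM and the CBP300 libraries all below it, with no overlap. The log2 change between the inhibitors was 2.99 (SE 0.16, adjusted p = 2.57e-07), or 3.43 relative to the median member. CXCL8, the neutrophil chemoattractant interleukin-8 (chromosome 4, 73740506 to 73743716, plus strand), had 11.8, 14.1 and 10.5 TPM with PF9363, 1.11, 1.25 and 0.615 TPM with CBP300 and 4.08, 3.91 and 3.38 TPM with OSM. It showed the same order as NOS3, with a log2 change of 2.73 (SE 0.28, adjusted p = 1.82e-05). EGR1, an immediate early transcription factor of the ERK pathway (chromosome 5, 138465490 to 138469315, plus strand), had 19.6, 21.4 and 12.9 TPM with PF9363, 172, 189 and 179 TPM with CBP300 and 71.9, 75.3 and 80.5 TPM with OSM, against 11.8, 24.6 and 22.4 TPM in CT libraries. It ran the other way: the CBP300 libraries were the highest of all and the PF9363 libraries lay in the range of the control cells. The log2 change was -3.28 (SE 0.25, adjusted p = 2.15e-06). Corrected changes were 3.21 for NOS3, 3.35 for CXCL8 and -3.03 for EGR1.

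**Figure D2:**
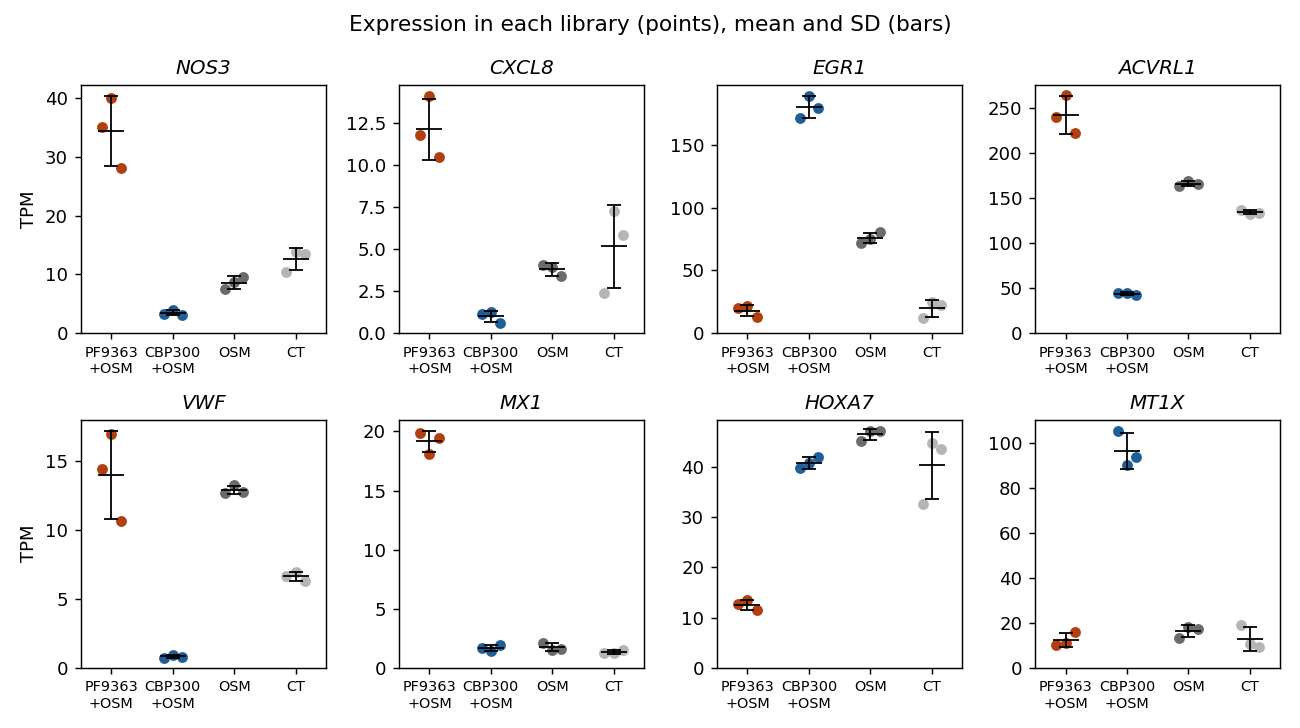
TPM (vertical axes, each from 0) in each library of NOS3, CXCL8, EGR1, ACVRL1, VWF, MX1, HOXA7 and MT1X for PF9363 with OSM, CBP300 with OSM, OSM and CT. Points are libraries and bars the mean and SD of 3. NOS3, CXCL8, ACVRL1, VWF and MX1 are higher with PF9363 than with CBP300 and EGR1, HOXA7 and MT1X lower, without overlap.

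The 12 genes furthest in favour of PF9363 included secreted, membrane and intracellular proteins and 1 noncoding RNA. SLPI, an inhibitor of leukocyte proteases, had 44.4, 45.9 and 62.1 TPM with PF9363, 0, 0.433 and 1.39 TPM with CBP300 and 0, 1.03 and 0.725 TPM with OSM. PAEP, the lipocalin glycodelin, had 43.1, 39.8 and 56.7 TPM with PF9363, 1.34, 1.38 and 1.704 TPM with CBP300 and 0.582, 0.14 and 0.149 TPM with OSM. NPPB, the precursor of B-type natriuretic peptide, had 16.2, 19.9 and 19.04 TPM with PF9363, 0.25, 0.219 and 0 TPM with CBP300 and 0, 0 and 0.611 TPM with OSM. These 3 were low with OSM and with CBP300 and high in every PF9363 library. The log2 change between the inhibitors was 5.09 (SE 0.33, adjusted p = 8.64e-07) for SLPI and 4.25 (SE 0.17, adjusted p = 5.81e-08) for PAEP. For NPPB, which passed the limit through the PF9363 libraries alone, it was 4.07, with no test. IGFBP5, which binds insulin-like growth factors, differed by 4.37 (SE 0.32, adjusted p = 2e-06), at 428 ± 142 TPM with PF9363, 18.9 ± 2.102 TPM with CBP300 and 131 ± 9.32 TPM with OSM. GGT5, a gamma-glutamyltransferase of the cell surface, differed by 4.27 (SE 0.12, adjusted p = 1.31e-08), at 88.98 ± 9.54 TPM with PF9363, 3.66 ± 0.196 TPM with CBP300 and 28.03 ± 1.29 TPM with OSM. Both lay above OSM with PF9363 and below it with CBP300. TAGLN, the actin-binding protein transgelin, had 77.7, 79.3 and 101 TPM with PF9363, 4.19, 4.61 and 3.87 TPM with CBP300 and 63.8, 72.6 and 74.8 TPM with OSM. It was thus somewhat above its OSM level with PF9363, a difference that was not called, and low with CBP300, a log2 change of 4.05 (SE 0.12, adjusted p = 1.94e-08). TM4SF18, a membrane protein with 4 transmembrane spans, and SULT1E1, the estrogen sulfotransferase, were also low with CBP300. TM4SF18 was at 36.7 ± 6.83 TPM with PF9363, 1.29 ± 0.223 TPM with CBP300 and 22.8 ± 1.16 TPM with OSM, and SULT1E1 at 18.8 ± 4.48 TPM with PF9363, 0.231 ± 0.0499 TPM with CBP300 and 11.5 ± 0.783 TPM with OSM. The hemoglobin gene HBA2 had 44.9, 36.996 and 50.3 TPM with PF9363 and 0, 0.0624 and 0 TPM with CBP300, a log2 change of 5.45. Its neighbour HBA1 had 11.6, 20.03 and 24.6 TPM with PF9363 and 0, 0.124 and 0 TPM with CBP300. Both, like SULT1E1, MSMP and LINC02056, passed the limit through the PF9363 libraries alone. HBA1 and HBA2 are near-identical copies, so that the division of reads between them is uncertain. The secreted protein gene MSMP and the noncoding LINC02056 complete the 12 highest, at 16.8 and 13.4 TPM with PF9363, against 0.202 and 0 TPM with CBP300.

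In the other direction, SV2A, a transporter-like protein of secretory vesicles, had 1.46, 1.92 and 1.19 TPM with PF9363, 50.1, 56.8 and 56.1 TPM with CBP300 and 40.3, 39.1 and 42.8 TPM with OSM. It was nearly absent from all PF9363 libraries, while the CBP300 libraries lay above OSM, with a log2 change of -4.46 (SE 0.11, adjusted p = 6.91e-09). SORT1, the sorting receptor sortilin, had 4.72, 3.87 and 3.95 TPM with PF9363, 56.5, 58.2 and 56.3 TPM with CBP300 and 24.97, 22.9 and 22.7 TPM with OSM and a log2 change of -3.49 (SE 0.12, adjusted p = 3.34e-08). SCRN3, a secernin, had 0.842, 0.394 and 0.367 TPM with PF9363, 19.3, 17.9 and 17.8 TPM with CBP300 and 13.4, 10.2 and 12.1 TPM with OSM and a log2 change of -3.67, with no test. MORN2 was at 0.778 ± 0.302 TPM with PF9363, 18.3 ± 3.095 TPM with CBP300 and 19.5 ± 0.841 TPM with OSM (-3.44 (SE 0.16, adjusted p = 1.04e-07)). SMIM30, a small membrane protein, was at 4.44 ± 1.44 TPM with PF9363, 56.9 ± 5.38 TPM with CBP300 and 46.4 ± 1.43 TPM with OSM (-3.45 (SE 0.29, adjusted p = 4.45e-06)). For SV2A, MORN2 and SMIM30 it was thus mainly PF9363 that departed from OSM, whereas SORT1 lay below OSM with PF9363 and above it with CBP300. The microRNA genes MIR7161, MIR186 and MIR1281 and the pseudogenes BRCA1P1 and HMGN1P1 were also among the 12 lowest. They are short or copied elsewhere and rest on at most 85, 126, 20, 29 and 91 reads in a library. MIR1281 (chromosome 22, 41092513 to 41092566, plus strand) lies within the span of EP300 (chromosome 22, 41091786 to 41180079, plus strand), and reads of such a host gene cannot be told apart from its own. The change of MIR186 ranged from -4.84 to -2.29 when single libraries were left out, -2.29 without PF9363 replicate 3.

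**Figure D3:**
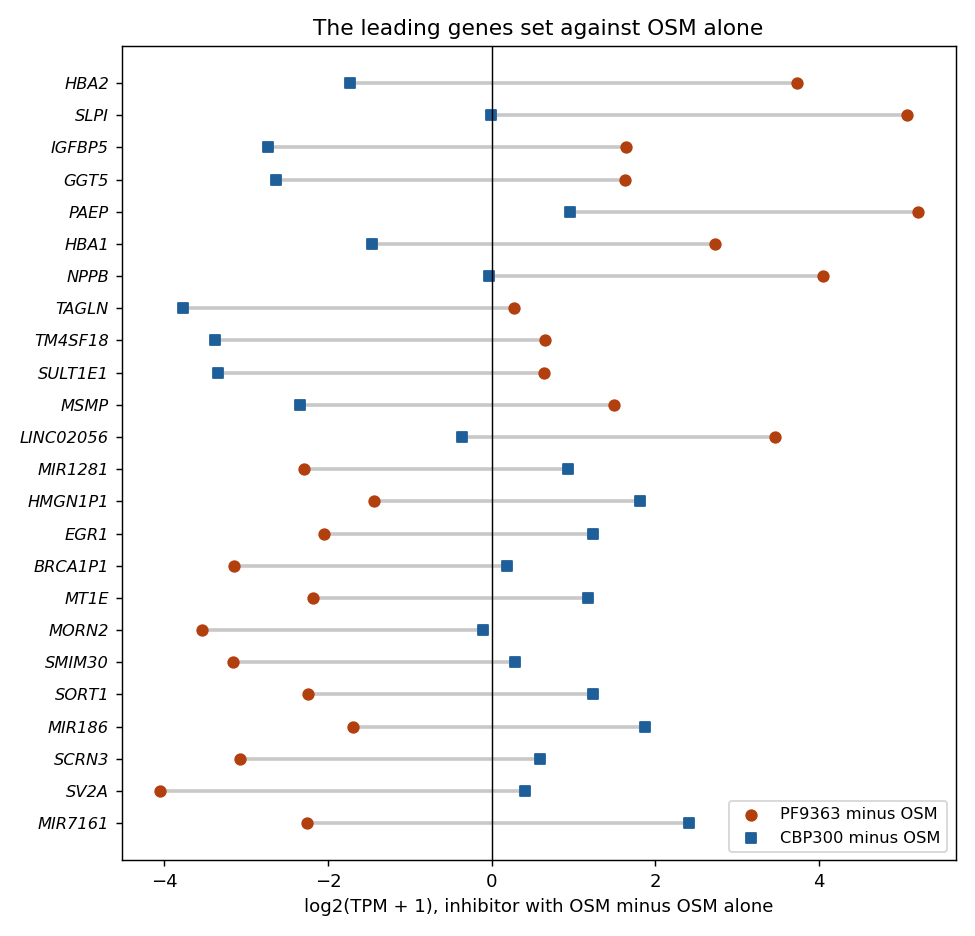
Difference in log2(TPM + 1) from OSM alone (horizontal axis) of the 12 highest and 12 lowest members, for PF9363 (circles) and CBP300 (squares), which share the OSM libraries. TAGLN sits near 0 with PF9363 and far below with CBP300, SLPI and NPPB near 0 with CBP300 and far above with PF9363, and SV2A and MORN2 near 0 with CBP300 and far below with PF9363.

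Transcripts of the targeted enzymes are given as a check, although an inhibitor of catalysis need not change them. KAT6A had 10.3 ± 4.44 TPM with PF9363, 25.4 ± 1.95 TPM with CBP300 and 12.98 ± 1.999 TPM with OSM. It showed a log2 change between the inhibitors of -1.31 (SE 0.28, adjusted p = 0.00203) that was -0.30 and not called in corrected values. KAT6B had 1.898 ± 0.761 TPM with PF9363, 6.104 ± 0.432 TPM with CBP300 and 4.16 ± 0.424 TPM with OSM. It showed a change of -1.33 (SE 0.22, adjusted p = 0.000388) and -0.38 when corrected. EP300 had 28.02, 25.5 and 9.14 TPM with PF9363, 49.1, 57.9 and 49.8 TPM with CBP300 and 33.4, 27.9 and 26.8 TPM with OSM. Its change of -1.42 (SE 0.38, adjusted p = 0.00793) was -0.94 without PF9363 replicate 3 and -0.55, not called, when corrected. CREBBP changed by -0.64 (SE 0.24, adjusted p = 0.0401). It was no longer called without PF9363 replicate 3 (-0.37) or without any single CBP300 library, and its corrected change was 0.13. KAT7, the MYST relative in the HBO1 complexes, was not called (-0.24 (SE 0.17, adjusted p = 0.223)) but higher in corrected values (0.72). Of 20 acetyltransferases and complex partners, 0 were called higher and 13 lower, with a median of -0.64, and 3 and 7 in corrected values. ING4, an HBO1 complex subunit that binds methylated H3, was lower by both measures, at 13.01 ± 0.767 TPM with PF9363, 33.9 ± 1.17 TPM with CBP300 and 44.1 ± 1.99 TPM with OSM, with a change of -1.32 (SE 0.08, adjusted p = 6.8e-07), -1.18 when corrected.

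Of the readers and erasers of acetylation, 1 of 17 bromodomain proteins and deacetylases was called higher and 10 lower (4 and 8 when corrected). Of the 17, 2 passed the limit through the CBP300 libraries alone, and of the other 15 genes 1 was higher and 8 lower. HDAC7, a class IIa deacetylase of endothelium, was the higher one, at 68.1 ± 5.999 TPM with PF9363, 38.9 ± 1.35 TPM with CBP300 and 70.7 ± 3.48 TPM with OSM (0.79 (SE 0.09, adjusted p = 4.12e-05)). HDAC11 (-1.13 (SE 0.12, adjusted p = 1.64e-05)) and BRD3 (-0.96 (SE 0.18, adjusted p = 0.00101)) were lower, with PF9363 levels of 2.18 and 23.8 TPM, against CBP300 levels of 5.94 and 46.5 TPM.

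Genes of the oncostatin M pathway went both ways. The oncostatin M gene itself was listed at 0 in all inhibitor libraries but PF9363 replicate 3 (0.0894 TPM). SOCS3, the feedback inhibitor of gp130 that STAT3 induces, had 370.3, 392 and 293 TPM with PF9363, 453, 451 and 445 TPM with CBP300 and 376, 379 and 391 TPM with OSM, with a change of -0.36 (SE 0.20, adjusted p = 0.137) that was not called. IL6ST was not called (-0.71 (SE 0.56, adjusted p = 0.283)), and OSMR was called lower (-0.76 (SE 0.24, adjusted p = 0.0165)). It was not called without PF9363 replicate 3 or CBP300 replicate 2, and its corrected change was 0.042. Of 14 gp130 receptors, cytokines and kinases, 2 were higher and 6 lower, 3 without PF9363 replicate 3, and 6 were higher and 3 lower in corrected values. The shares of 14.3% higher and 42.9% lower were near those of all members, 15.1% and 47.6%. Of the 14, 1 passed the limit through the PF9363 libraries alone, and of the other 13 genes 2 were higher and 6 lower. IL11RA, the receptor of interleukin-11, was lower by both measures, at 3.89 ± 1.04 TPM with PF9363, 14.6 ± 1.67 TPM with CBP300 and 11.8 ± 0.453 TPM with OSM (-1.70 (SE 0.16, adjusted p = 1.03e-05)). Of 19 STAT3 targets and feedback genes, 5 were higher and 5 lower (7 and 5 when corrected), with a median of -0.14. SOCS1, the inhibitor of JAK kinases, was higher at 13.96 ± 2.66 TPM with PF9363, 5.37 ± 0.288 TPM with CBP300 and 3.94 ± 0.417 TPM with OSM (1.22 (SE 0.16, adjusted p = 8.55e-05)). BCL6, a transcriptional repressor, was lower, at 18.4 ± 5.14 TPM with PF9363, 37.5 ± 1.65 TPM with CBP300 and 55.9 ± 4.26 TPM with OSM (-1.03 (SE 0.24, adjusted p = 0.00363)).

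Interferon-stimulated genes, whose products block viral replication, were mostly higher with PF9363. Of 38 tested, 28 were called higher and 1 lower, with a median log2 change of 1.32 against -0.44 over all members, and in corrected values 37 were higher and 1 lower. Of the 38, 4 passed the limit through the PF9363 libraries alone, and of the other 34 genes 24 were higher and 1 lower. OAS2, which senses double-stranded RNA, had 33.6, 31.7 and 24.9 TPM with PF9363, 1.56, 1.78 and 1.54 TPM with CBP300 and 3.68, 4.33 and 3.38 TPM with OSM (3.56 (SE 0.14, adjusted p = 5.81e-08)). MX1, a dynamin-like antiviral GTPase, had 19.8, 18.1 and 19.5 TPM with PF9363, 1.69, 1.42 and 1.92 TPM with CBP300 and 2.102, 1.49 and 1.63 TPM with OSM (2.92 (SE 0.12, adjusted p = 7.19e-08)). In both the PF9363 libraries lay far above the CBP300 and OSM libraries, which overlapped for MX1, while OAS2 was lower with CBP300 than with OSM. ISG15, a ubiquitin-like modifier, had 245, 269 and 448 TPM with PF9363, 75.8, 70.4 and 67.6 TPM with CBP300 and 108, 112 and 112 TPM with OSM (2.10 (SE 0.23, adjusted p = 3.09e-05)). IFI27 reached 23.7 ± 4.87 TPM with PF9363, 4.46 ± 0.336 TPM with CBP300 and 3.89 ± 0.454 TPM with OSM. IFITM1, which blocks virus entry, reached 52.98 ± 0.423 TPM with PF9363, 11.7 ± 2.35 TPM with CBP300 and 30.1 ± 2.52 TPM with OSM. These are the 3 genes whose promoters are shown above. Against OSM, 25 of the 38 were higher and 2 lower with PF9363, and 2 were higher and 12 lower with CBP300. The exception was UBE2L6, the conjugating enzyme of ISG15, which was lower at 42.3 ± 3.81 TPM with PF9363, 73.4 ± 4.22 TPM with CBP300 and 102 ± 1.69 TPM with OSM (-0.78 (SE 0.08, adjusted p = 1.83e-05)). TRIM22 followed another order, with 17.97 ± 5.42 TPM with PF9363, 3.17 ± 0.288 TPM with CBP300 and 20.98 ± 1.96 TPM with OSM, so that only CBP300 stood apart from OSM.

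The transcription factors of this response did not share one direction. IRF7 was higher, at 157 ± 22.2 TPM with PF9363, 53.1 ± 1.65 TPM with CBP300 and 36.4 ± 2.77 TPM with OSM (1.54 (SE 0.11, adjusted p = 1.99e-06)), and IRF1 was higher by 0.75 (SE 0.08, adjusted p = 2.37e-05). STAT2 (-0.54 (SE 0.14, adjusted p = 0.0069)) and IRF5 (-1.10, no test) were lower. For STAT2 the corrected change was -0.15, not called.

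Genes of MHC class I presentation were also mostly higher. Of 18 genes for MHC class I and peptide loading, 13 were called higher and 0 lower (17 and 0 when corrected), with a median of 0.44. HLA-B had 794, 841 and 1023 TPM with PF9363, 346, 335 and 367 TPM with CBP300 and 396, 419 and 439.8 TPM with OSM (1.33 (SE 0.11, adjusted p = 3.18e-06)). PSMB10, a subunit of the immunoproteasome that cuts peptides for MHC, had 63.6, 63.4 and 83.4 TPM with PF9363, 19.1, 19.7 and 19.8 TPM with CBP300 and 46.4, 46.1 and 45.9 TPM with OSM (1.78 (SE 0.11, adjusted p = 6.32e-07)). The HLA-B libraries with CBP300 lay just below OSM, a difference that was not called, while PSMB10 lay below OSM with CBP300 and above it with PF9363. Of 10 MHC class II genes 4 passed the limit, 3 of them through the PF9363 libraries alone, so that their direction was fixed and their count shows nothing further. The 10 genes summed to 17.5 to 18.6 TPM with PF9363, 2.59 to 4.03 TPM with CBP300 and 3.61 to 4.73 TPM with OSM. HLA-DRA, normally silent in resting endothelium, had 10.6, 10.3 and 9.31 TPM with PF9363, 0.712, 0.125 and 0 TPM with CBP300 and 0.272, 0.491 and 0.174 TPM with OSM (3.15, no test). Its partner CD74, the invariant chain, had 3.67 ± 0.146 TPM with PF9363, 0.462 ± 0.131 TPM with CBP300 and 0.641 ± 0.11 TPM with OSM. Reads of the polymorphic HLA genes can be misplaced among relatives, so single HLA values are uncertain.

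**Figure D4:**
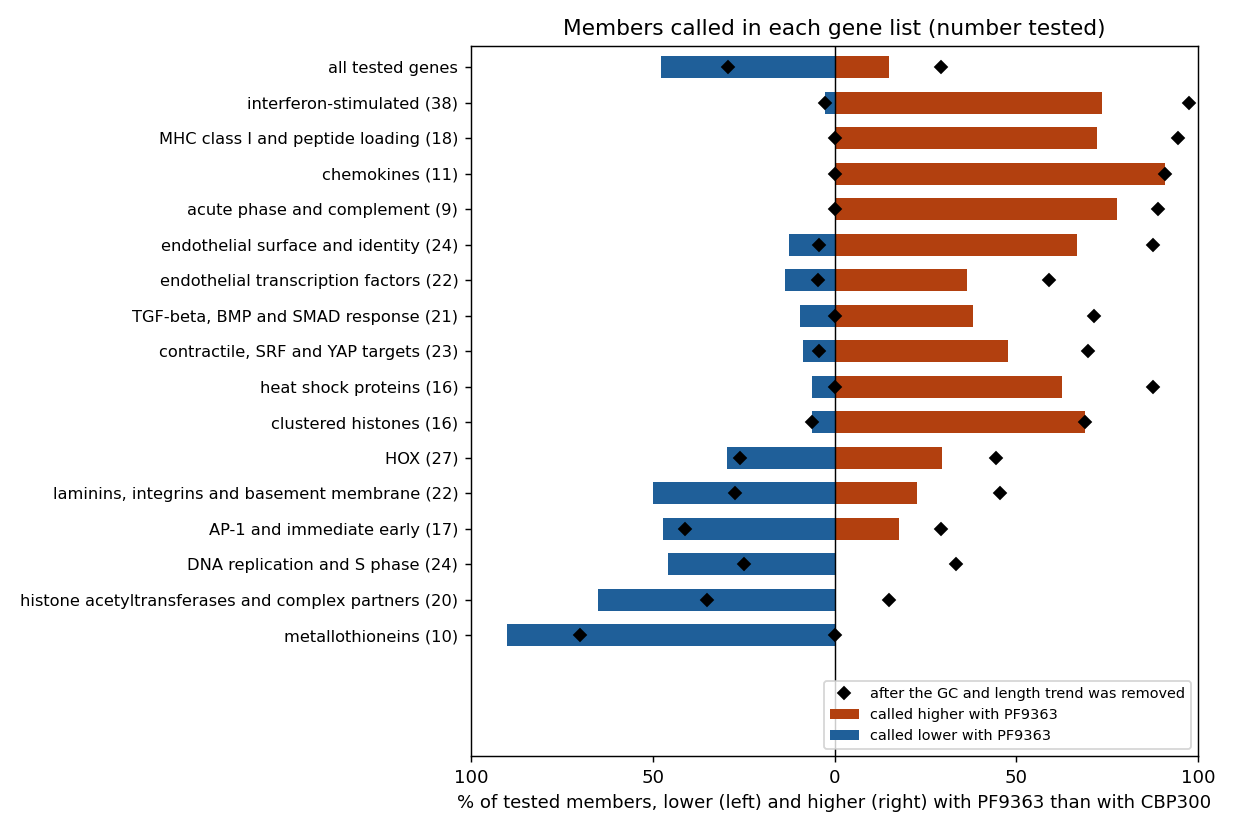
Percent of tested members (horizontal axis) called higher (right) and lower (left) with PF9363 than with CBP300 in 16 gene lists and over all members, with the number tested in parentheses. Diamonds give the same after removal of the GC and length trend. Interferon-stimulated, MHC class I, chemokine, complement and endothelial surface genes lie mostly to the right and metallothioneins to the left, while all members lie mostly to the left. The bars include members that passed the limit through the libraries of 1 inhibitor alone, whose direction was fixed. Through PF9363 libraries alone these were 4 of 38 interferon-stimulated, 4 of 11 chemokine, 3 of 9 complement and 4 of 24 endothelial surface genes.

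Chemokines were almost uniformly higher. Of 11 tested, 10 were called higher and 0 lower, also in corrected values, and 6 were higher among the 7 that did not pass the limit through PF9363 libraries alone. The median of the 11 was 1.57. CCL26, an eosinophil attractant, had 8.43, 4.62 and 8.07 TPM with PF9363, 0, 0.146 and 0 TPM with CBP300 and 0, 0.289 and 0.306 TPM with OSM (2.90, no test). CXCL1, which acts on the same receptor as CXCL8, had 18.4, 18.1 and 16.6 TPM with PF9363, 1.95, 2.502 and 2.22 TPM with CBP300 and 3.11, 4.79 and 4.29 TPM with OSM (2.54 (SE 0.15, adjusted p = 5.41e-07)). CXCL12, which holds CXCR4-bearing cells, fell to 33.04 ± 7.19 TPM with PF9363 and 10.96 ± 0.566 TPM with CBP300, against 59.8 ± 3.16 TPM with OSM. Against OSM, 7 of the 11 were higher and 3 lower with PF9363, and 0 were higher and 7 lower with CBP300.

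Of 9 tested acute phase and complement genes, 7 were higher and 0 lower (8 and 0 when corrected), and 4 were higher among the 6 that did not pass the limit through PF9363 libraries alone. SERPING1, the inhibitor of complement C1, had 10.8, 12.8 and 12.02 TPM with PF9363, 0.541, 0.802 and 0.84 TPM with CBP300 and 1.83, 1.92 and 2.16 TPM with OSM (2.90, no test). CD55, which protects cells from complement, had 114 ± 13.9 TPM with PF9363, 37.3 ± 1.11 TPM with CBP300 and 31.01 ± 1.95 TPM with OSM (1.58 (SE 0.22, adjusted p = 0.00015)). LBP, the lipopolysaccharide-binding protein, reached 3.49, 5.7001 and 3.75 TPM with PF9363 and 0, 0.17 and 0.151 TPM with CBP300. Of 8 tested interleukins and growth cytokines 6 were higher and 1 lower (7 and 0 when corrected), and 5 and 1 among the 6 that did not pass the limit through PF9363 libraries alone. Among the higher ones were IL32 at 7.71 ± 1.78 TPM with PF9363, 0.877 ± 0.156 TPM with CBP300 and 2.88 ± 0.624 TPM with OSM (2.20 (SE 0.20, adjusted p = 7.75e-06)) and TNFSF10, the death ligand TRAIL, at 21.4 ± 1.74 TPM with PF9363, 5.62 ± 0.334 TPM with CBP300 and 26.5 ± 0.441 TPM with OSM. IL33 is an alarmin that all CBP300 libraries list at 0, while the PF9363 libraries had 3.47, 2.76 and 1.401 TPM. IL6 was the gene called lower (-0.57 (SE 0.18, adjusted p = 0.0167)), with 2.37 ± 0.676 TPM with PF9363, 3.96 ± 0.505 TPM with CBP300 and 10.4 ± 0.554 TPM with OSM. It was not called without PF9363 replicate 3 or CBP300 replicate 1, nor in corrected values. Against OSM, 2 of the 8 interleukins and growth cytokines were higher and 2 lower with PF9363, and 0 were higher and 7 lower with CBP300.

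NF-κB components and targets that were called were mostly higher, with 8 of 16 higher and 2 lower (10 and 2 when corrected). Of the 16, 1 passed the limit through the CBP300 libraries alone, and of the other 15 genes 8 were higher and 1 lower. CD40, a receptor for T-cell help, had 14.8, 16.3 and 21.8 TPM with PF9363, 1.62, 1.802 and 1.64 TPM with CBP300 and 2.42, 2.34 and 2.401 TPM with OSM (2.78 (SE 0.13, adjusted p = 1.41e-07)). CFLAR, the caspase-8 inhibitor FLIP, had 32.1 ± 7.64 TPM with PF9363, 10.7 ± 0.504 TPM with CBP300 and 19.6 ± 1.25 TPM with OSM (1.48 (SE 0.18, adjusted p = 6.44e-05)). REL, a subunit of NF-κB, was lower, at 0.548 ± 0.278 TPM with PF9363, 4.68 ± 0.824 TPM with CBP300 and 1.35 ± 0.242 TPM with OSM (-1.88, no test). So was NFKBIZ, a nuclear cofactor, at 8.42 ± 3.29 TPM with PF9363, 23.4 ± 0.25 TPM with CBP300 and 8.73 ± 0.826 TPM with OSM (-1.44 (SE 0.34, adjusted p = 0.00409)). Of 8 leukocyte adhesion molecules 4 were higher and 2 lower (5 and 2 when corrected). The cytokine-inducible ICAM1 was lower, with 44.2, 39.2 and 46.6 TPM with PF9363, 97.2, 100.3 and 102 TPM with CBP300 and 85.4, 88.2 and 87.6 TPM with OSM (-1.19 (SE 0.10, adjusted p = 3.79e-06)). The constitutive ICAM2 was higher, with 85.1, 90.4 and 118 TPM with PF9363, 16.01, 18.3 and 17.5 TPM with CBP300 and 58.8, 62.96 and 68.4 TPM with OSM (2.42 (SE 0.16, adjusted p = 9.9e-07)). For ICAM1 it was the PF9363 libraries, and for ICAM2 the CBP300 libraries, that lay below OSM.

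Endothelial identity genes separated the inhibitors chiefly through low levels with CBP300. Of 24 tested surface and identity genes 16 were called higher with PF9363 and 3 lower (21 and 1 when corrected), with a median of 1.15. Of these, 4 passed the limit through the PF9363 libraries alone, and of the other 20 genes 12 were higher and 3 lower. Against OSM, 7 were higher and 3 lower with PF9363, and 2 were higher and 17 lower with CBP300. VWF, the clotting factor stored in endothelial granules, had 14.4, 16.9 and 10.6 TPM with PF9363, 0.733, 0.949 and 0.795 TPM with CBP300 and 12.7, 13.2 and 12.7 TPM with OSM (3.02, no test). PLVAP, which forms the diaphragms of fenestrae, had 39.7, 45.8 and 35.2 TPM with PF9363, 3.32, 3.06 and 3.36 TPM with CBP300 and 26.8, 30.1 and 27.6 TPM with OSM (3.27 (SE 0.11, adjusted p = 3.28e-08)). In both the CBP300 libraries lay far below OSM. The PLVAP libraries with PF9363 lay above it, and the VWF libraries with PF9363 lay on both sides of it. ECSCR, a regulator of VEGF signalling, had 179 ± 46.9 TPM with PF9363, 30.9 ± 3.81 TPM with CBP300 and 99.7 ± 2.88 TPM with OSM (2.47 (SE 0.25, adjusted p = 1.53e-05)). MMRN2, a matrix protein of vessels, had 189.9 ± 21.2 TPM with PF9363, 30.5 ± 1.66 TPM with CBP300 and 131 ± 0.514 TPM with OSM (2.60 (SE 0.15, adjusted p = 4.96e-07)). ROBO4, a receptor that stabilises vessels, had 89.3 ± 5.43 TPM with PF9363, 19.1 ± 1.13 TPM with CBP300 and 120.1 ± 6.03 TPM with OSM (2.17 (SE 0.08, adjusted p = 3.88e-08)). CDH5, the cadherin of endothelial junctions, was at 98.05 ± 21.2 TPM with PF9363, 45.9 ± 1.003 TPM with CBP300 and 202 ± 3.97 TPM with OSM, below OSM with both inhibitors and lower with CBP300 (1.06 (SE 0.22, adjusted p = 0.0021)). FLT4, the receptor of VEGFC, was lower with PF9363 (-0.64 (SE 0.17, adjusted p = 0.0071)), as was PODXL, a sialomucin (-0.65 (SE 0.19, adjusted p = 0.0128)), which changed by -0.43 without PF9363 replicate 3 and by -0.14, not called, in corrected values. In these bulk libraries fewer cells expressing a gene and less RNA per cell cannot be told apart.

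Among 22 endothelial transcription factors 8 were higher and 3 lower (13 and 1 when corrected). SOX18, a regulator of vessel and lymphatic differentiation, had 21.9 ± 3.68 TPM with PF9363, 7.75 ± 1.63 TPM with CBP300 and 33.9 ± 2.32 TPM with OSM (1.39 (SE 0.18, adjusted p = 9.09e-05)). LYL1, a bHLH factor, had 24.9 ± 4.98 TPM with PF9363, 7.79 ± 0.371 TPM with CBP300 and 18.2 ± 1.41 TPM with OSM (1.54 (SE 0.16, adjusted p = 1.91e-05)). TAL1, a bHLH factor of blood and vessel development closely related to LYL1, was the reverse, with 13.7, 13.3 and 8.39 TPM with PF9363, 34.2, 34.5 and 35.8 TPM with CBP300 and 46.96, 46.4 and 47.3 TPM with OSM (-1.51 (SE 0.16, adjusted p = 2.4e-05)). The TAL1 level was lowest in all PF9363 libraries.

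Genes that set vessel tone differed in both directions. EDN1, the vasoconstrictor endothelin-1, had 42.4, 43.3 and 29.1 TPM with PF9363, 4.44, 3.86 and 4.73 TPM with CBP300 and 165, 148 and 152 TPM with OSM (2.86 (SE 0.30, adjusted p = 2.07e-05)): both inhibitors lay below OSM, and CBP300 the lower. RAMP2, which makes the receptor CALCRL respond to adrenomedullin, was higher, at 9.65 ± 2.43 TPM with PF9363, 1.29 ± 1.05 TPM with CBP300 and 10.1 ± 2.56 TPM with OSM (2.28 (SE 0.31, adjusted p = 0.000112)), and CALCRL itself lower, with 11.9, 9.01 and 4.34 TPM with PF9363, 37.2, 38.6 and 35.4 TPM with CBP300 and 47.99, 36.998 and 36.5 TPM with OSM (-2.11 (SE 0.38, adjusted p = 0.000764)). CAV1, the coat protein of caveolae, had 411 ± 75.4 TPM with PF9363, 126 ± 5.32 TPM with CBP300 and 433 ± 10.4 TPM with OSM (1.68 (SE 0.29, adjusted p = 0.000588)). Of 16 tested genes of vessel tone and flow response 9 were higher and 4 lower (10 and 3 when corrected), and 2 lower without PF9363 replicate 3 or any single CBP300 library. Of the 16, 2 passed the limit through the PF9363 libraries alone, and of the other 14 genes 7 were higher and 4 lower. Against OSM, 6 of the 16 were higher and 3 lower with PF9363, and 2 were higher and 5 lower with CBP300. Of 17 coagulation and fibrinolysis genes 11 were higher, 7 without any single CBP300 library, and 3 lower (14 and 2 when corrected). Of the 17, 1 passed the limit through the PF9363 libraries alone and 1 through the CBP300 libraries alone. Of the other 15 genes 10 were higher and 2 lower. PLAUR, the urokinase receptor, had 182 ± 18.6 TPM with PF9363, 35.6 ± 0.728 TPM with CBP300 and 52.5 ± 2.81 TPM with OSM (2.32 (SE 0.09, adjusted p = 5.14e-08)). THBD, the anticoagulant thrombomodulin, had 141 ± 31.2 TPM with PF9363, 46.5 ± 1.53 TPM with CBP300 and 45.4 ± 0.576 TPM with OSM (1.56 (SE 0.23, adjusted p = 0.000204)). PROS1, protein S, had 15.004 ± 3.06 TPM with PF9363, 47.6 ± 1.63 TPM with CBP300 and 40.9 ± 2.68 TPM with OSM (-1.62 (SE 0.17, adjusted p = 2.06e-05)). THBD and PLAUR exceeded OSM with PF9363, and PROS1 fell below it.

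Growth factor and Notch genes were mixed. ANGPT2, the TIE2 ligand that loosens vessels, had 4.67, 4.03 and 2.89 TPM with PF9363, 0.0784, 0.107 and 0.203 TPM with CBP300 and 0.475, 0.421 and 0.702 TPM with OSM (2.09, no test). PDGFB, which recruits pericytes, had 47.7 ± 7.25 TPM with PF9363, 11.1 ± 0.102 TPM with CBP300 and 99.96 ± 3.38 TPM with OSM (2.003 (SE 0.14, adjusted p = 1.6e-06)). VEGFA was lower, at 6.73 ± 1.32 TPM with PF9363, 15.6 ± 0.344 TPM with CBP300 and 13.3 ± 1.06 TPM with OSM (-1.12 (SE 0.21, adjusted p = 0.000861)), with a corrected change of -0.38 that was not called. Of 17 such growth factors and receptors 6 were higher and 5 lower (12 and 4 when corrected). Of the 17, 1 passed the limit through the PF9363 libraries alone, and of the other 16 genes 5 were higher and 5 lower. NOTCH4, the endothelial Notch receptor, was higher, at 11.1 ± 1.55 TPM with PF9363, 3.39 ± 0.469 TPM with CBP300 and 11.5 ± 0.32 TPM with OSM (1.46 (SE 0.13, adjusted p = 5.09e-06)). NOTCH2 was lower, at 15.7 ± 5.99 TPM with PF9363, 47.9 ± 4.57 TPM with CBP300 and 26.1 ± 2.93 TPM with OSM (-1.62 (SE 0.31, adjusted p = 0.0012)). Of 19 Notch and tip cell genes 10 were higher and 4 lower (13 and 2 when corrected). Of the 19, 1 passed the limit through the CBP300 libraries alone, and of the other 18 genes 10 were higher and 3 lower.

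Genes of the TGF-β and BMP branch that were called were mostly higher. Of 21 tested 8 were higher and 2 lower, 1 without PF9363 replicate 3 or any single CBP300 library (15 and 0 when corrected). Of the 21, 1 passed the limit through the PF9363 libraries alone, and of the other 20 genes 7 were higher and 2 lower. ACVRL1, the endothelial BMP9 receptor ALK1, had 239, 264 and 222 TPM with PF9363, 44.4, 44.4 and 41.9 TPM with CBP300 and 163, 169 and 165 TPM with OSM (2.44 (SE 0.08, adjusted p = 1.94e-08)). The PF9363 libraries lay above OSM and the CBP300 libraries far below. ID3, a direct BMP target, had 921 ± 96.9 TPM with PF9363, 331 ± 3.98 TPM with CBP300 and 717 ± 45.1 TPM with OSM (1.47 (SE 0.09, adjusted p = 6.29e-07)). MGP, a secreted BMP inhibitor, had 6.94 ± 1.69 TPM with PF9363, 0.187 ± 0.0602 TPM with CBP300 and 27.5 ± 1.34 TPM with OSM (2.72, no test). GREM1, another BMP inhibitor, was lower (-1.21 (SE 0.30, adjusted p = 0.0055)), but its corrected change was 0.042.

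Contractile genes and targets of SRF and YAP gave 11 higher and 2 lower of 23, 1 lower without PF9363 replicate 3 (16 and 1 when corrected). Of the 23, 1 passed the limit through the PF9363 libraries alone, and of the other 22 genes 10 were higher and 2 lower. Beside TAGLN, ACTA2, smooth muscle actin, had 6, 7.47 and 6.51 TPM with PF9363, 0.952, 1.02 and 1.29 TPM with CBP300 and 5.97, 4.999 and 5.59 TPM with OSM (1.87 (SE 0.13, adjusted p = 1.71e-06)). CNN2, a calponin, had 461 ± 25.4 TPM with PF9363, 169 ± 11.04 TPM with CBP300 and 241 ± 18.4 TPM with OSM (1.45 (SE 0.08, adjusted p = 3.34e-07)). Against OSM 5 were higher and 4 lower with PF9363, and 0 were higher and 9 lower with CBP300. SNAI2 and SNAI1, related repressors of epithelial genes, went opposite ways. SNAI2 was at 5.82 ± 1.21 TPM with PF9363, 1.81 ± 0.219 TPM with CBP300 and 1.88 ± 0.409 TPM with OSM (1.27 (SE 0.21, adjusted p = 0.000466)), and SNAI1 at 24.4 ± 3.62 TPM with PF9363, 43.5 ± 1.08 TPM with CBP300 and 50.98 ± 3.69 TPM with OSM (-0.82 (SE 0.15, adjusted p = 0.000944)).

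Matrix genes differed in both directions. COL1A1, a chain of fibrillar type I collagen, was higher with 56.8, 61.7 and 46.7 TPM with PF9363, 7.78, 8.83 and 8.07 TPM with CBP300 and 33.9, 35.4 and 38.1 TPM with OSM (2.60 (SE 0.12, adjusted p = 1.25e-07)), as was BGN, the proteoglycan biglycan, with 741 ± 36.4 TPM with PF9363, 164 ± 10.2 TPM with CBP300 and 1019 ± 75.4 TPM with OSM (2.17 (SE 0.09, adjusted p = 5.81e-08)). The basement membrane collagens COL4A1 (-1.39 (SE 0.28, adjusted p = 0.00167)) and COL4A2 (-1.56 (SE 0.11, adjusted p = 1.14e-06)) were lower. COL4A1 had 29.004, 26.4 and 15.9 TPM with PF9363, 62.9, 64.99 and 58.3 TPM with CBP300 and 87.7, 81.7 and 78.99 TPM with OSM, and COL4A2 had 29.4, 28.9 and 23.1 TPM with PF9363, 80.7, 83.7 and 80.7 TPM with CBP300 and 100.4, 105 and 105 TPM with OSM. COL8A2 had 1.73 ± 0.266 TPM with PF9363, 10.8 ± 0.388 TPM with CBP300 and 23.5 ± 2.09 TPM with OSM (-2.11 (SE 0.20, adjusted p = 1.05e-05)), lowest with PF9363. Over 16 collagens 6 were higher and 8 lower (8 and 5 when corrected). Of the 16, 1 passed the limit through the PF9363 libraries alone and 1 through the CBP300 libraries alone. Of the other 14 genes 5 were higher and 7 lower. Over 22 laminins, integrins and basement membrane genes 5 were higher and 11 lower, but 10 and 6 when corrected. Of the 22, 1 passed the limit through the PF9363 libraries alone, and of the other 21 genes 4 were higher and 11 lower. Over all members 47.6% were called lower, near the share in either list. Without PF9363 replicate 3, 5 collagens and 7 genes of the laminin list were lower, and 7 of that list also without CBP300 replicate 1 or CBP300 replicate 2. The laminin chain LAMB3 was higher at 11.2 ± 1.19 TPM with PF9363, 1.02 ± 0.0563 TPM with CBP300 and 3.96 ± 0.218 TPM with OSM (2.60 (SE 0.11, adjusted p = 7.19e-08)), and LAMB2 was lower at 99.2 ± 11.7 TPM with PF9363, 245 ± 10.9 TPM with CBP300 and 229 ± 3.74 TPM with OSM (-1.30 (SE 0.09, adjusted p = 9.65e-07)). MMP1 and ADAMTS1, proteases that cut matrix, were higher, with MMP1 at 20.6, 23.5 and 17.3 TPM with PF9363, 2.16, 1.34 and 1.12 TPM with CBP300 and 8.59, 7.44 and 8.44 TPM with OSM (3.09 (SE 0.19, adjusted p = 5.55e-07)). ADAMTS1 had 21.4 ± 5.303 TPM with PF9363, 2.09 ± 0.306 TPM with CBP300 and 3.95 ± 0.649 TPM with OSM (2.83 (SE 0.20, adjusted p = 1.77e-06)). FBN2, fibrillin-2 of elastic fibres, was lower at 67.9 ± 23.1 TPM with PF9363, 255 ± 19.6 TPM with CBP300 and 231 ± 22.1 TPM with OSM (-1.96 (SE 0.29, adjusted p = 0.000229)), as was FBLN5, which assembles them, at 3.26 ± 0.379 TPM with PF9363, 12.9 ± 0.0862 TPM with CBP300 and 14.01 ± 0.234 TPM with OSM (-1.71 (SE 0.14, adjusted p = 4.77e-06)).

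HOX genes, which give cells their position along the body axis, differed in both directions. Of 27 tested 8 were higher and 8 lower with PF9363 than with CBP300 (12 and 7 when corrected), with a median of -0.024 in the deposited values and 0.092 in corrected ones. Of the 27, 1 passed the limit through the PF9363 libraries alone and 2 through the CBP300 libraries alone. Of the other 24 genes 7 were higher and 6 lower. The 29.6% of the 27 in each direction compare with 15.1% higher and 47.6% lower of all members, and the list's median lay 0.42 above that of all members. With median-of-ratios scaling 14 were higher and 5 lower, with a median of 0.43. Against OSM, 1 was higher and 18 lower with PF9363, and 1 was higher and 16 lower with CBP300. Single genes differed. HOXA7 had 12.6, 13.5 and 11.4 TPM with PF9363, 39.7, 40.8 and 42.01 TPM with CBP300 and 45.2, 47.1 and 47.2 TPM with OSM (-1.63 (SE 0.12, adjusted p = 1.72e-06)). HOXA2 had 4.22, 3.58 and 3.83 TPM with PF9363, 11.1, 11.9 and 14.6 TPM with CBP300 and 14.5, 13.6 and 17.5 TPM with OSM (-1.47 (SE 0.24, adjusted p = 0.000429)). In these it was PF9363 that lay below OSM. HOXC9 was the reverse, with 7.88, 7.59 and 9.57 TPM with PF9363, 2.55, 2.39 and 2.97 TPM with CBP300 and 7.21, 7.71 and 7.396 TPM with OSM (1.36 (SE 0.15, adjusted p = 2.82e-05)), and so was HOXB5, with 12.3 ± 1.85 TPM with PF9363, 4.503 ± 0.3 TPM with CBP300 and 13.3 ± 0.661 TPM with OSM (1.26 (SE 0.12, adjusted p = 7.92e-06)). HOXD9 was below OSM in both groups, at 20.3 ± 2.24 TPM with PF9363, 33.8 ± 2.197 TPM with CBP300 and 83.9 ± 2.68 TPM with OSM, and HOXD13 was detected mainly with PF9363, at 3.398, 2.702 and 2.59 TPM, against 0.0733, 0.107 and 0 TPM with CBP300.

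Metallothioneins, small proteins that bind zinc and copper, were lower with PF9363 as a group, chiefly through levels above OSM with CBP300. Of 10 metallothionein and zinc-handling genes 0 were higher and 9 lower (0 and 7 when corrected), with a median of -1.44. The 10 genes summed to 835 to 1349 TPM with PF9363, 5940 to 6261 TPM with CBP300 and 2174 to 2583 TPM with OSM. In CT libraries the sums were 4149.5 to 7912.5 TPM, so the CBP300 sums lay in the range of the control cells. MT1X had 10.3, 10.98 and 15.8 TPM with PF9363, 105, 90.05 and 93.7 TPM with CBP300 and 13.1, 18.3 and 17.1 TPM with OSM (-2.88 (SE 0.24, adjusted p = 4.89e-06)). MT1E had 50.3, 60.7 and 77.97 TPM with PF9363, 713, 539.9 and 699.6 TPM with CBP300 and 285, 255 and 316 TPM with OSM (-3.36 (SE 0.22, adjusted p = 9.05e-07)). MT2A had 693, 849.6 and 1203 TPM with PF9363, 5167, 5127 and 5286 TPM with CBP300 and 1796, 2156 and 2176 TPM with OSM (-2.54 (SE 0.25, adjusted p = 1.37e-05)). For MT1X the PF9363 libraries lay near OSM, and for MT1E and MT2A they lay below it, while the CBP300 libraries exceeded OSM for all 3. SLC30A1, the zinc exporter that MTF1 induces, had 33.5 ± 12.6 TPM with PF9363, 107 ± 2.73 TPM with CBP300 and 25.5 ± 3.403 TPM with OSM (-1.72 (SE 0.37, adjusted p = 0.00236)). Metallothionein genes are close copies, so the division of reads among them is uncertain. Against OSM 0 of the 10 were higher and 4 lower with PF9363, and 6 were higher and 0 lower with CBP300. Over all members 36.5% were lower than OSM with PF9363, near the share in this list, and 15.3% were higher with CBP300.

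The lists of immediate early and ERK feedback genes had shares called lower with PF9363 than with CBP300 near that of all members (47.1% in each, against 47.6%). Of 17 immediate early genes 3 were higher and 8 lower (5 and 7 when corrected). FOS, a subunit of AP-1, had 12.7, 12.04 and 9.83 TPM with PF9363, 36.8, 35.6 and 36.9 TPM with CBP300 and 7.705, 8.31 and 8.28 TPM with OSM (-1.59 (SE 0.18, adjusted p = 3.91e-05)). ZFP36, which destabilises cytokine mRNA, had 54.3 ± 8.92 TPM with PF9363, 116 ± 7.45 TPM with CBP300 and 64.9 ± 4.85 TPM with OSM (-1.09 (SE 0.24, adjusted p = 0.00256)). FOSL1, another AP-1 subunit, was higher at 153 ± 5.94 TPM with PF9363, 81.5 ± 1.81 TPM with CBP300 and 62.8 ± 6.65 TPM with OSM (0.90 (SE 0.10, adjusted p = 3.08e-05)). Of 17 ERK feedback genes 3 were higher and 8 lower, 5 without PF9363 replicate 3 (6 and 5 when corrected). SPRED2, an inhibitor of RAS signalling, had 11.2 ± 3.37 TPM with PF9363, 32.97 ± 1.73 TPM with CBP300 and 15.6 ± 0.7 TPM with OSM (-1.51 (SE 0.34, adjusted p = 0.00275)). DUSP4, a phosphatase of ERK, had 18.9 ± 2.22 TPM with PF9363, 10.3 ± 0.828 TPM with CBP300 and 8.41 ± 0.765 TPM with OSM (0.81 (SE 0.14, adjusted p = 0.000511)). Against OSM, 9 of the 17 immediate early genes were higher and 2 lower with PF9363, and 11 were higher and 0 lower with CBP300. For the 17 ERK feedback genes these counts were 6 and 3 with PF9363 and 7 and 1 with CBP300. Over all members 12.2% were higher than OSM with PF9363 and 15.3% with CBP300.

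In stress programmes, heat shock genes, NRF2 targets and p53 targets that were called were mostly higher. Of 16 heat shock genes 10 were higher and 1 lower (14 and 0 when corrected), with a median of 0.61, and HSPB1 was at 884 ± 273 TPM with PF9363, 253 ± 15.3 TPM with CBP300 and 840.1 ± 90.98 TPM with OSM (1.75 (SE 0.27, adjusted p = 0.000243)). Of the 16 heat shock genes 1 passed the limit through the PF9363 libraries alone, and of the other 15 genes 9 were higher and 1 lower. Of 16 NRF2 targets 6 were higher and 0 lower (12 and 0 when corrected), with NQO1, a quinone reductase, at 170.1 ± 11.7 TPM with PF9363, 52.7 ± 1.54 TPM with CBP300 and 78.8 ± 3.23 TPM with OSM (1.67 (SE 0.08, adjusted p = 1.23e-07)). OSGIN1 had 20.1 ± 3.18 TPM with PF9363, 3.12 ± 0.144 TPM with CBP300 and 2.26 ± 0.247 TPM with OSM (2.35 (SE 0.13, adjusted p = 3.63e-07)). Of 21 p53 targets 10 were higher and 3 lower, 1 without PF9363 replicate 3 (14 and 0 when corrected), with the death receptor FAS at 19.6, 16.9 and 12.9 TPM with PF9363, 2.001, 1.81 and 1.73 TPM with CBP300 and 5.22, 4.46 and 3.95 TPM with OSM (2.60 (SE 0.22, adjusted p = 5.02e-06)). Against OSM, 6 of the 21 p53 targets were higher and 4 lower with PF9363, and 1 was higher and 9 lower with CBP300. For the heat shock genes these counts were 10 and 0 with PF9363 and 2 and 3 with CBP300. For the NRF2 targets they were 8 and 1 with PF9363 and 4 and 2 with CBP300. In the unfolded protein response SEL1L (-1.83 (SE 0.32, adjusted p = 0.000633)) and EDEM1 (-1.37 (SE 0.31, adjusted p = 0.00341)), which remove misfolded proteins, were lower, and 2 of 17 were higher and 4 lower (10 and 3 when corrected). ENO2, a glycolytic enolase, was lower at 38.2 ± 3.17 TPM with PF9363, 126 ± 0.555 TPM with CBP300 and 112 ± 2.91 TPM with OSM (-1.70 (SE 0.09, adjusted p = 1.84e-07)), in a hypoxia and glycolysis list with 6 of 23 higher and 9 lower (10 and 7 when corrected).

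Cell cycle lists shifted with the correction, as the whole set of members did. Of 24 G2/M genes 8 were higher and 6 lower, 3 without PF9363 replicate 3, and 14 and 2 when corrected. Of 24 S phase genes 0 were higher and 11 lower (45.8%, against 47.6% of all members), and 8 and 6 when corrected. AURKB, the mitotic kinase, was higher at 423 ± 44.7 TPM with PF9363, 236 ± 10.7 TPM with CBP300 and 241 ± 9.72 TPM with OSM (0.84 (SE 0.10, adjusted p = 4.04e-05)). GINS1, a part of the replicative helicase, was lower, at 44.1 ± 7.67 TPM with PF9363, 94.9 ± 4.36 TPM with CBP300 and 68.1 ± 3.85 TPM with OSM (-1.10 (SE 0.23, adjusted p = 0.00191)). Of 16 tested histone genes, 15 of them with an annotation for the correction, 11 were higher and 1 lower, also when corrected. The summed level of the 19 genes that could be matched, of 20 listed, nevertheless overlapped, at 1678.7 to 1736.0 TPM with PF9363 and 1689.0 to 1722.5 TPM with CBP300, against 896.4 to 932.8 TPM with OSM. H1-2, a linker histone, had 383, 399 and 547 TPM with PF9363, 61.8, 49.6 and 60.9 TPM with CBP300 and 45.6, 49.5 and 44.8 TPM with OSM (2.91 (SE 0.16, adjusted p = 2.94e-07)). H2BC12, an H2B gene, had 445, 454 and 416 TPM with PF9363, 81.4, 91.3 and 81.6 TPM with CBP300 and 57.8, 62.04 and 57.9 TPM with OSM (2.36 (SE 0.13, adjusted p = 3.11e-07)). Most of these genes make mRNA without a poly(A) tail, and their libraries were selected for poly(A). Of 26 ribosomal protein genes 11 were higher and 0 lower, but 5 without PF9363 replicate 3, 18 without PF9363 replicate 1 and 6 without any single CBP300 library (16 and 0 when corrected). Of 15 mitochondrially encoded genes 3 were higher and 5 lower (3 and 2 when corrected). The higher ones were ND3 and the ribosomal RNAs RNR1 and RNR2, RNR2 with 35626, 33866 and 31247 TPM, against 11741, 10865 and 11162 TPM with CBP300 and 15813, 16039 and 15971 TPM with OSM. The lower ones were ATP6 (-0.32 (SE 0.09, adjusted p = 0.00887)), COX2, COX3, CYTB and ND5, the last at 3419 ± 1221 TPM with PF9363, 6958 ± 93.9 TPM with CBP300 and 5079 ± 208 TPM with OSM.

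Markers of other cell types were checked beside these results. Of 10 epithelial markers 4 passed the limit of 1 TPM and were called higher, summing to 2984 to 4239 TPM with PF9363, 580.2 to 591.7 TPM with CBP300 and 918.0 to 1020.4 TPM with OSM. They were the keratins KRT18, KRT8, KRT7 and KRT14, of which KRT8 and KRT18 also occur in cultured endothelium and KRT14 passed the limit through the PF9363 libraries alone. KRT18 had 2871, 2636 and 3813 TPM with PF9363 and 512, 521 and 517 TPM with CBP300. The defining epithelial EPCAM was at or under 0.563 TPM and CDH1 at or under 0.101 TPM in the inhibitor libraries. Of 15 leukocyte and blood markers 2 passed, HBA1 and CD14, both higher, with sums of 59.2 to 87.2 TPM with PF9363, 16.4 to 18.5 TPM with CBP300 and 18.2 to 156.6 TPM with OSM. The coreceptor for lipopolysaccharide CD14 had 43.96, 47.3 and 59.6 TPM with PF9363, 15.6, 17.2 and 17.2 TPM with CBP300 and 12.9, 14.8 and 16.3 TPM with OSM (1.53 (SE 0.14, adjusted p = 1e-05)), while the leukocyte marker PTPRC was at or under 0.0207 TPM and ITGAM at or under 0.3 TPM. Of 12 fibroblast and mural markers 8 passed, with 2 higher and 4 lower, and sums of 176.6 to 235.4 TPM with PF9363, 222.9 to 235.4 TPM with CBP300 and 232.6 to 244.2 TPM with OSM. Of the 8, 1 passed the limit through the CBP300 libraries alone, and of the other 7 genes 2 were higher and 3 lower. LUM was at 0 in all inhibitor libraries, and DCN in all but PF9363 replicate 3, at 0.0151 TPM.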

How the data were processed

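Messenger RNA of HMEC-1 cells was measured in 12 libraries, 3 in each of 4 groups. Per the labels' protocols, libraries were stranded and poly(A) selected and read as paired ends. The authors' deposited table gives TPM per gene and library. Programs named in the submitters' processing notes are RSEM 1.3.3, Bowtie2 and Trimmomatic 0.40, with the build GRCh38, while the annotation and any filter are not given in the sources used here. The PF9363 columns fall 178 to 430 TPM short of 1e6, and this was left as deposited.

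Values were log2(TPM + 1), fitted with limma 3.58.1 (R 4.3.3) with a mean for each of the 4 groups and variances moderated along a trend. TPM are not counts, but whole reads were recovered for 15671 of 15676 tested genes (tolerance 0.001) and used for depth and for a voom alternative. For corrected values, natural splines with 4 degrees of freedom each on GC content and on log2 transcript length (GENCODE 29) were fitted per library, using genes whose mean log2 value exceeded 2, and removed together with the library level. Other alternatives concerned pseudocount, filter, scaling, moderation, the replicate number and single libraries. In a simulation of this comparison with 15676 genes, the calls recovered 29 of 67 genes with a 1.5-fold change, 72 of 74 with a 2-fold change and 59 of 59 with a 4-fold change, and 13 of 15476 unchanged genes were called. The simulated noise was independent between genes and held none of the library-wide trends on GC content and length. Its counts therefore do not give the rate of false calls in these libraries. The changed genes of the simulation were drawn only from those with a mean level well above 1 TPM. They were also few, whereas 9834 members were called in the data. The recovery therefore does not hold for members near 1 TPM.

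The members and the 47 gene lists were chosen with earlier results of these data known. Genes were named by a rule: the 12 highest and 12 lowest called changes whose higher group averaged 5 TPM or more, without overlap and passing over clone names, the 2 largest called changes per list and direction, the marker genes, the inhibitors' targets and the receptor genes. Further list members were added after their values were seen. Gene names are those of the table. Python 3.11.15 with pandas 2.3.3, numpy 2.4.6 and matplotlib 3.10.9 served for tables and plots.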

Additional observations from a re-analysis of the deposited data

How the results depend on the processing

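Under 19 alternatives, 140 of the 180 named and tested genes kept their direction and call in every one, and 14 turned in sign under at least 1. The median change of all members was -0.44. It was -0.28 with a pseudocount of 5 TPM and with voom on recovered reads, -0.066 with no filter, -0.033 with median-of-ratios scaling, -0.059 with quantile scaling and -0.010 in corrected values, with or without the replicate block. With median-of-ratios scaling 4313 genes were higher and 4628 lower (1723 and 1517 at least 2-fold), with quantile scaling 4243 and 4945 (1671 and 1475), in corrected values 4569 and 4588 (1369 and 1208), and in corrected values with the replicate block 4423 and 4454 (1368 and 1206). A pseudocount of 5 TPM left 390 at least 2-fold higher and 1671 lower, a filter at 5 TPM 545 higher, and voom gave 1522 higher. The causes were not tested beyond the construction of each setting. Without single libraries 2072 to 2343 genes were higher, 6440 to 7504 lower and 2686 to 4073 at least 2-fold lower. Signs turned with median-of-ratios scaling for AXL (0.019), CYTB (0.014), HSPA4 (0.0058), KAT7 (0.21) and SOCS3 (0.11), with quantile scaling for KAT7 (0.32), and in corrected values, with and without the block, for ADAM17 (0.18), CREBBP (0.13), FOXO1 (0.16), GREM1 (0.042), HSPA4 (0.36), IL6ST (0.50), KAT7 (0.72), LIFR (0.064), OSMR (0.042), TGFBR1 (0.24) and TP53INP1 (0.11). Deviations of the same replicate number correlated at 0.048, 0.061 and 0.10 between the inhibitors, across genes, which are not independent replicates. These values cannot show whether the number pairs libraries. With the number as a block 2275 genes were higher and 7107 lower. Depth limits short and low genes most, and with 3 libraries a group an exact permutation test of a single gene cannot go below a two-sided p of 0.1.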

Other observations

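Zinc finger genes, taken by symbol (ZNF, ZFP, ZSCAN, ZKSCAN) after their values were seen, were lower with PF9363: of 511 tested 12 were called higher and 378 lower, with a median log2 change of -0.87, and in corrected values 78 were higher and 235 lower, with a median of -0.26. Their transcripts had a median GC content of 45.2%. By gene type, processed pseudogenes had a median of -0.10, long intergenic noncoding RNAs of -0.21 and protein-coding genes of -0.48, and the corrected medians were 0.02, 0.03 and 0.006. HBB, the beta chain of hemoglobin, was outside the members. It was listed at 0 in all PF9363 libraries and at 0, 0.0396 and 0 TPM with CBP300, while the OSM libraries held 48.8, 1.72 and 132 TPM and the CT libraries 0.244, 40.6 and 0.35 TPM.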
